A study of Arabidopsis thaliana with 36 samples.

Results

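*GASA* genes (gibberellic acid-stimulated in Arabidopsis) encode small secreted peptides with a conserved cysteine-rich domain, and the family is named after members whose transcripts rise upon gibberellin (GA) treatment. The 8 members described here are *GASA1* (AT1G75750), *GASA4* (AT5G15230), *GASA5* (AT3G02885), *GASA6* (AT1G74670), *GASA7* (AT2G14900), *GASA9* (AT1G22690), *GASA10* (AT5G59845) and *GASA14* (AT5G14920). They were chosen by their locus identifiers out of 28775 genes in the count table. That rule uses no measured value, but the members were chosen with earlier results of these data known. GA is perceived by the GID1 receptors, and the hormone-bound receptor directs DELLA proteins, the repressors of GA responses, to degradation. Roots with low GA or with a DELLA that resists degradation therefore have restrained GA signalling, while roots without DELLAs behave as if the signal were always on. Growth on high salt restrains GA signalling in Arabidopsis seedlings, and GASA peptides are known from work on cell elongation, flowering and stress tolerance.

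The transcriptomes came from the lower 1 cm of the roots of 5-d-old seedlings, pooled from many plants per library. The *della5x* mutant carries *gai-t6* and *rga-t2* together with *rgl1-1*, *rgl2-1* and *rgl3-4*, and so is mutated in all 5 DELLA genes, *gai* has a stabilised form of the GAI protein, *ga4* is impaired late in the synthesis of GA, and L*er* is the wild-type. Roots of *della5x*, *gai*, *ga4* and L*er* were taken after 8 h on 140 mM NaCl or on mock medium, and *della5x* and L*er* also after 1 h on the same media. This gave 12 groups of 3 libraries, 36 in all, and no source used here says whether the libraries of a group came from separate growth experiments, so that P values measure the spread between these libraries. In bulk roots, fewer cells of a type and less RNA per cell cannot be told apart.

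The libraries held between 16772984 and 23811804 counts (median 18884857), and levels are given as CPM, TMM-normalised counts scaled to the size of the library. In *della5x*, *RGL1* was between 0 and 0.307 CPM in 12 libraries, against 4.03 to 8.55 CPM in the 24 libraries of *gai*, *ga4* and L*er*, while *RGL3* was at 152 to 440 CPM, against 2.65 to 10.06 CPM. *GAI* (2.85 to 11.5 CPM, against 12.6 to 23.8 CPM) and *RGA* (27.4 to 53.5 CPM, against 73.2 to 120 CPM) were lower in *della5x* but still counted. The ranges of *RGL2* overlapped (2.92 to 12.3 CPM, against 9.86 to 19.3 CPM). Transcript levels do not test the labels of *gai* and *ga4*, whose lesions act on the protein. One library stood apart from its group, the second *della5x* salt library of 1 h, whose log2 CPM correlated with the other libraries of its group at r = 0.933, against 0.953 to 0.989 for the others. In that library *GASA1* was at 102 CPM, against 457 and 542 CPM in the other libraries of the group, and *GASA5* was at 11.2 CPM, against 2.80 and 1.32 CPM. The log2 fold changes of *della5x* upon salt at 1 h are therefore given with and without it, while overlaps of groups are given with it. The libraries of 1 h share 1 fit, so that it also bears on the SE and P of L*er* at 1 h.

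The members lie on 4 chromosomes in the TAIR10.1 annotation: *GASA1* at chr1:28441501-28442435 (minus strand), *GASA6* at chr1:28053030-28054149, *GASA9* at chr1:8027126-8028168, *GASA7* at chr2:6404131-6405352, *GASA5* at chr3:637921-639242 (minus strand), *GASA14* at chr5:4826141-4828384, *GASA4* at chr5:4944816-4946299 and *GASA10* at chr5:24111304-24112100. Coding sequences were short, between 270 and 360 bases, other than in *GASA14* with 828 bases, which encodes a long proline-rich stretch before the GASA domain. *GASA6* and *GASA9* overlap a gene on the opposite strand (AT1G74675 and AT1G22700), and reads of the pairs may have been mixed because the strand setting of the counting is not given in the sources used here. The 250 bases before each annotated gene start were read from the TAIR10.1 genome and searched on both strands for TAACAAA, known from cereal amylase promoters as a hormone-response element, for the G-box CACGTG, and for ACGTGGC, which factors of abscisic acid signalling bind. The shorter ACGTG core was added after these sequences had been seen. It overlaps with both longer elements. ACGTG was found in 3 of 8 members, *GASA4*, *GASA5* and *GASA9*, and in 23.1% of 26709 promoters of the same length. In *GASA4* it lay 29 to 25 bases before the gene start, and in *GASA5* 30 to 26 bases before it. TAACAAA was found in *GASA9* alone among the 8, where it shares a base with the ACGTG on the minus strand, and in 16.2% of all promoters. None of the 8 held CACGTG (6.58% of all promoters) or ACGTGGC (3.42%). Of the 4 promoters printed, those of *GASA4*, *GASA5* and *GASA10* belong to genes that rose upon salt at 8 h and that of *GASA1* to the gene with the strongest expression without salt. The sequences are those of RefSeq TAIR10.1 at chr5:4944566-4944815 (plus strand) for *GASA4*, chr3:639243-639492 (minus strand) for *GASA5*, chr5:24111054-24111303 (plus strand) for *GASA10* and chr1:28442436-28442685 (minus strand) for *GASA1*. They run 5′ to 3′ and end 1 base before the gene start, with ACGTG in capitals. A match is a description of the sequence only.
GASA4: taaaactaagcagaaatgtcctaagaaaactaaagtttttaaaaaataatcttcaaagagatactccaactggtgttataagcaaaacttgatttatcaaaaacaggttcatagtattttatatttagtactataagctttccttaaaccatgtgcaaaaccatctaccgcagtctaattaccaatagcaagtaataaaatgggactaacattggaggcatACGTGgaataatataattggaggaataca
GASA5: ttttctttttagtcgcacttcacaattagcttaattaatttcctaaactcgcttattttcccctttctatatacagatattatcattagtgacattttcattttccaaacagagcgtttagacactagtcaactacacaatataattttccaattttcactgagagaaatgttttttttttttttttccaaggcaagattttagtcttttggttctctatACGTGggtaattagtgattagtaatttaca
GASA10: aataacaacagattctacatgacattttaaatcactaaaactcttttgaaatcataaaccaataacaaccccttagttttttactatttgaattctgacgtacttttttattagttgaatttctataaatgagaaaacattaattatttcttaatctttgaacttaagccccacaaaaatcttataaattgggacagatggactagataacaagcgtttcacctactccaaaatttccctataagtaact
GASA1: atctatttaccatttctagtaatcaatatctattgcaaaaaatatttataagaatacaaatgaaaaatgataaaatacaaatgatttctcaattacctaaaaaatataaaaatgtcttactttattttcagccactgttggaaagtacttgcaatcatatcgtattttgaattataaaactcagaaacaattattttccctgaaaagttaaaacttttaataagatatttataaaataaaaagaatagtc

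Levels of the members differed widely. Per kilobase of exon, under mock conditions at 8 h, *GASA1* was highest with 725 to 1110 CPM per kb over 12 libraries, followed by *GASA4* with 215 to 334 and *GASA7* with 44.2 to 83.3 CPM per kb. *GASA14* (3.24 to 10.4), *GASA10* (2.87 to 7.76) and *GASA5* (0.0558 to 3.54 CPM per kb) overlapped in their ranges and were at the bottom of the order. Upon salt at 8 h the order was another one: *GASA4* was highest with 343 to 645 CPM per kb, *GASA1* followed with 136 to 215, and *GASA14* was lowest of the 6 with 0.205 to 3.44 CPM per kb. *GASA10* (7.34 to 22.0) and *GASA5* (6.75 to 22.1) had almost the same range there, and both overlapped with that of *GASA7* (17.8 to 39.8 CPM per kb). The remaining members were barely detected. *GASA6*, which promotes cell elongation in germinating seeds, had 0 to 9 counts per library and 49 in all, with 19 of 36 libraries at 0. *GASA9* had 1 count in 1 library, a *della5x* mock library of 1 h. As 3 counts corresponded to 0.125 to 0.184 CPM, expression of *GASA9* below that level was not detectable at this depth. Neither gene passed the filter on low counts, and 6 of 8 members were tested in every comparison.

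**Figure D1:**
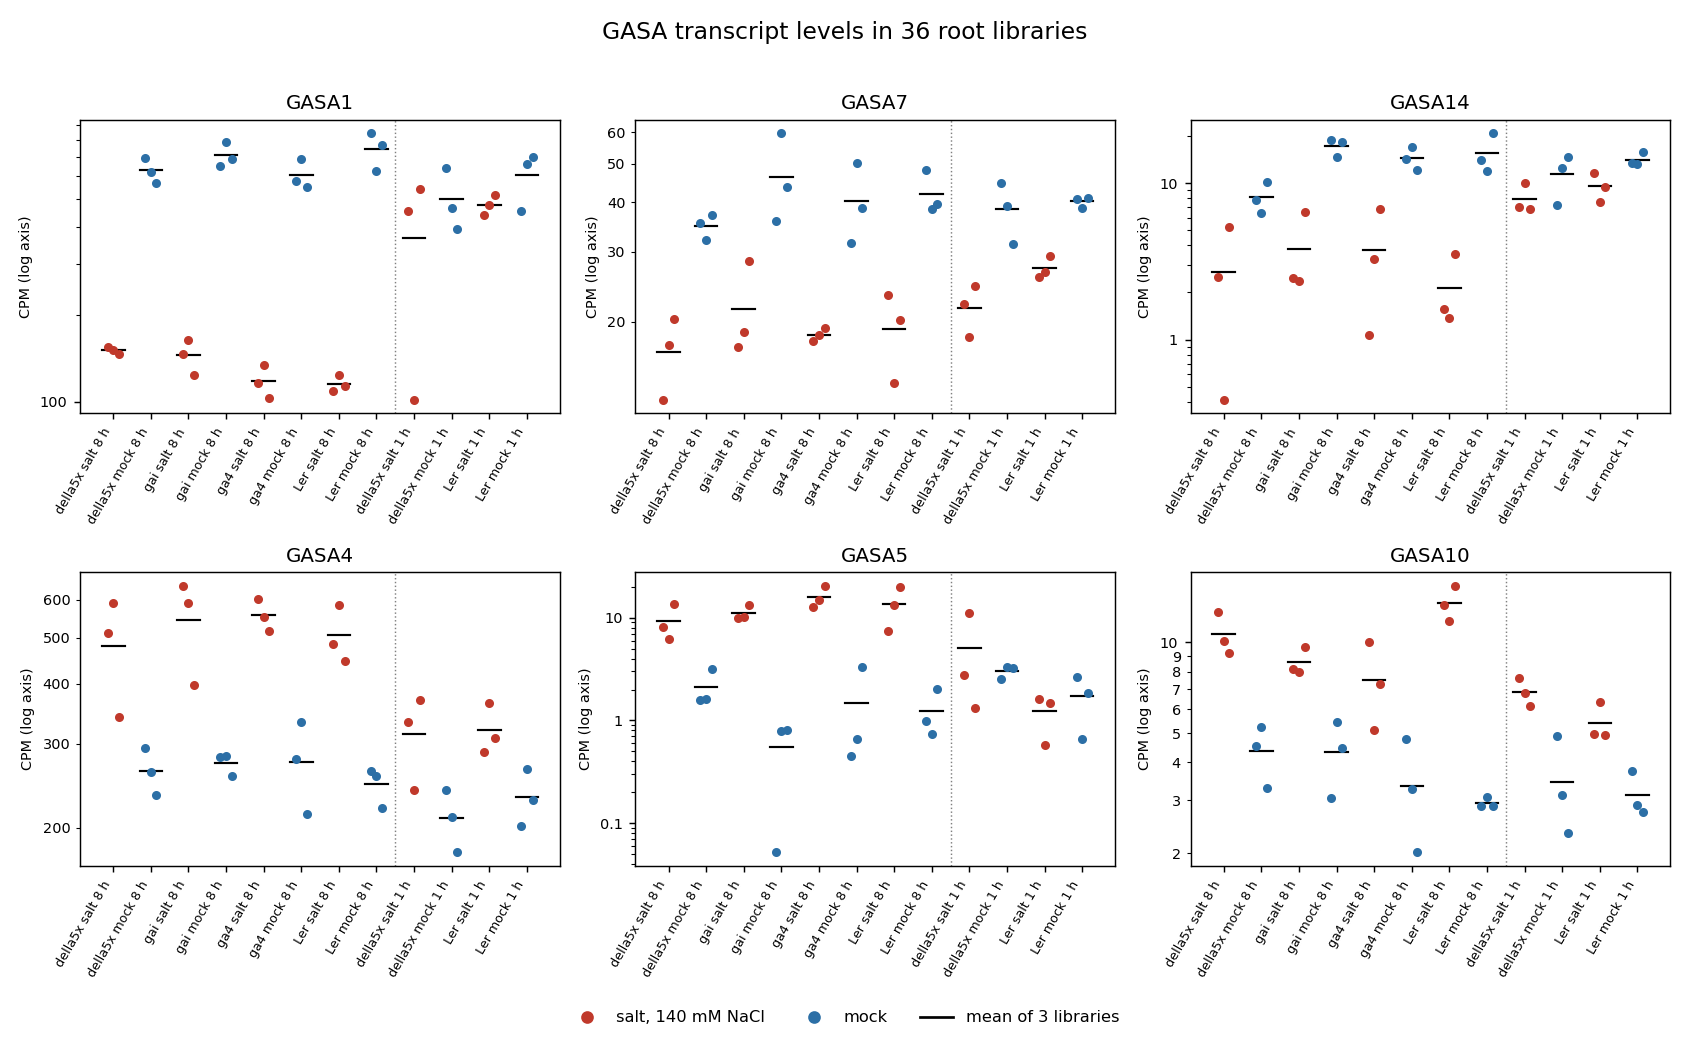
CPM on a log axis (y) of the 6 tested *GASA* genes in each of 36 libraries, by genotype, medium and time (x), with 8 h left and 1 h right of the dotted line. Points are libraries and black lines are means of 3. At 8 h all salt libraries lay below all mock libraries of their genotype for *GASA1*, *GASA7* and *GASA14*, and above them for *GASA4*, *GASA5* and *GASA10*.

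The first question was how the members respond to salt at 8 h in L*er* and in mutants with restrained or constitutive GA signalling. All 6 tested members changed in each of the 4 genotypes, 3 in either direction, and in no case did the salt and mock libraries of a genotype overlap. Over all 20355 genes tested, the libraries of the media likewise did not overlap for 43% in *della5x*, 39.3% in *gai*, 37.8% in *ga4* and 47.7% in L*er*. *GASA1*, *GASA7* and *GASA14* fell and *GASA4*, *GASA5* and *GASA10* rose. A gene was called changed at an adjusted P under 0.05 in edgeR's quasi-likelihood test together with a log2 fold change beyond 0.5 in either direction. By this rule all 6 tested members were called in each genotype, against a background of 22.8% of the 20355 genes tested for *della5x*, 19% for *gai*, 19.7% for *ga4* and 23.3% for L*er*.

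*GASA1*, a gene induced by GA, had the lowest P of the members in all 4 genotypes. It was at 109, 124 and 114 CPM upon salt in L*er*, against 844, 626 and 771 CPM on mock medium. In *della5x* it was at 155, 151 and 146 CPM upon salt, against 697, 623 and 568 CPM on mock medium. The salt libraries of every genotype were thus several-fold below the lowest mock library. The log2 fold change was -2.06 (SE 0.126, adjusted P = 1.19e-10, edgeR) in *della5x*, -2.31 (SE 0.126, adjusted P = 3.72e-11) in *gai*, -2.37 (SE 0.126, adjusted P = 3.63e-11) in *ga4* and -2.70 (SE 0.126, adjusted P = 2.22e-12) in L*er*.

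*GASA14*, a member linked to leaf expansion and stress tolerance, fell as well. It was at 1.56, 1.38 and 3.52 CPM upon salt in L*er*, against 13.98, 12.04 and 20.8 CPM on mock medium, a log2 fold change of -2.84 (SE 0.573, edgeR adjusted P = 0.000648). In *della5x* it was at 2.49, 0.410 and 5.26 CPM upon salt, against 7.84, 6.47 and 10.2 CPM on mock medium. Here the groups came close, and the log2 fold change of -1.58 (SE 0.567) had an adjusted P of 0.0382 by edgeR, the weakest of the 24 calls. It was not called by DESeq2 (adjusted P = 0.0540), nor without 1 of 4 *della5x* libraries, where it ranged from -1.08 to -2.53 over the refits that left out 1 library. In *gai* the log2 fold change was -2.21 and in *ga4* -1.96, and the *ga4* call was lost without the first *ga4* salt library (-1.53, edgeR adjusted P = 0.0581).

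*GASA7*, a member without a well-known function, fell in every genotype. In L*er* it was at 23.4, 14.02 and 20.2 CPM upon salt, against 48.2, 38.3 and 39.5 CPM on mock medium. The groups did not overlap, and the log2 fold change was -1.05 (SE 0.217) in *della5x*, -1.12 (SE 0.215) in *gai*, -1.12 (SE 0.216) in *ga4* and -1.13 (SE 0.216) in L*er*, with edgeR adjusted P between 0.000324 and 0.000839.

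*GASA4*, which acts in flowers, seeds and meristems and has been linked to the redox state, was the most abundant of those that rose. It was at 486, 585 and 448 CPM upon salt in L*er*, against 264, 256 and 220 CPM on mock medium. All salt libraries of L*er* were above the highest mock library. The log2 fold change was 0.87 (SE 0.184) in *della5x*, 0.98 (SE 0.184) in *gai*, 1.01 (SE 0.184) in *ga4* and 1.03 (SE 0.184) in L*er*, with edgeR adjusted P between 0.000163 and 0.000974.

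*GASA5*, a repressor of flowering and of heat tolerance, had the largest fold changes. It was at 7.46, 13.2 and 20.0 CPM upon salt in L*er*, against 0.991, 0.739 and 2.00 CPM on mock medium. In *gai* it was at 9.89, 10.2 and 13.4 CPM upon salt, against 0.0517, 0.793 and 0.804 CPM on mock medium, the first of which rests on 1 count. The salt libraries of both genotypes overlapped, and over all genotypes the transcript had 1 to 68 counts per mock library at 8 h, against 122 to 420 counts per salt library. The log2 fold change was 2.12 (SE 0.542, adjusted P = 0.00510, edgeR) in *della5x*, 4.32 (SE 0.675, adjusted P = 2.73e-05) in *gai*, 3.45 (SE 0.562, adjusted P = 0.000104) in *ga4* and 3.44 (SE 0.580, adjusted P = 9.20e-05) in L*er*.

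*GASA10*, a cell wall-associated member known from anthers and seeds, had its largest log2 fold change in L*er*. It was at 13.3, 11.7 and 15.4 CPM upon salt in L*er*, against 2.87, 3.06 and 2.86 CPM on mock medium. In *ga4* it was at 10.06, 5.14 and 7.30 CPM upon salt, against 4.79, 3.26 and 2.01 CPM on mock medium. The groups were far apart in L*er* and nearly touched in *ga4*. The log2 fold change was 1.29 (SE 0.271, adjusted P = 0.000978, edgeR) in *della5x*, 0.98 (SE 0.274, adjusted P = 0.0104) in *gai*, 1.14 (SE 0.278, adjusted P = 0.00373) in *ga4* and 2.19 (SE 0.278, adjusted P = 2.74e-06) in L*er*. The call in *gai* was lost without the first *gai* mock library (0.78, edgeR adjusted P = 0.0621), and that in *ga4* in a fit of the *ga4* libraries alone (1.14, adjusted P = 0.0553).

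**Figure D2:**
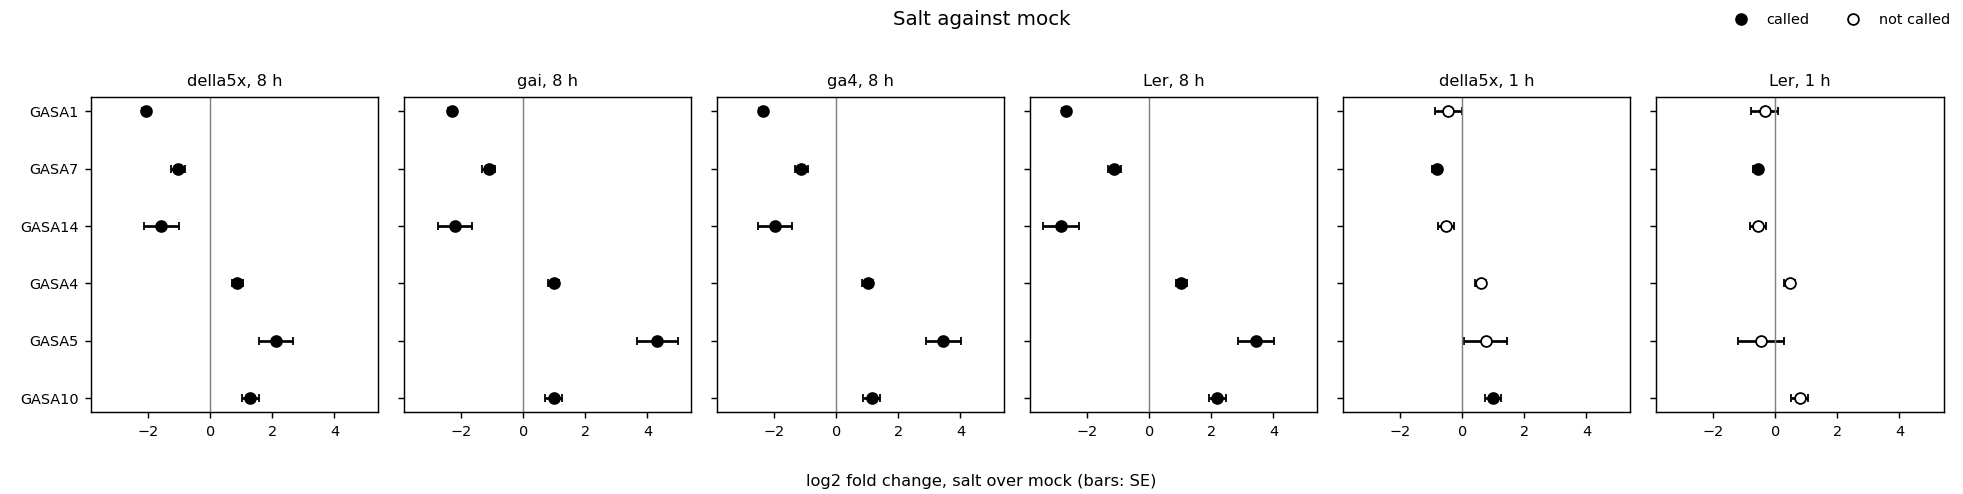
Log2 fold change of salt over mock (x) for the 6 tested *GASA* genes (y) in *della5x*, *gai*, *ga4* and L*er* at 8 h and in *della5x* and L*er* at 1 h. Bars are the SE of the edgeR fit, and filled points were called changed. All 24 values of 8 h are filled, with the largest rise in *gai* for *GASA5* (4.32) and the largest fall in L*er* for *GASA14* (-2.84), and 3 of the 12 values of 1 h are filled.

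Other transcripts of the root moved along with the members at 8 h. The summed level of 8 markers of dividing cells and the meristem was 109 to 202 CPM in the 12 salt libraries, against 208 to 264 CPM in the 12 mock libraries, and that of 5 endodermis markers was 212 to 300 CPM, against 312 to 410 CPM. The sums of 5 xylem markers (240 to 389 CPM upon salt, against 232 to 311 CPM), 5 root hair markers (136 to 361 CPM, against 187 to 293 CPM) and 3 lateral root cap markers (12.9 to 27.4 CPM, against 13.3 to 20.3 CPM) overlapped. The sum of 6 shoot markers was 9.71 to 91.7 CPM upon salt, against 16.6 to 140 CPM, with *CAB2* at 0 in 26 of 36 libraries, *RBCS3B* in 11 and *LHCB2.2* in 9. All the other markers were counted in every library. The ranges above pool the genotypes. Within *della5x*, *gai* and L*er*, the xylem sums of all salt libraries lay above those of all mock libraries (in L*er* 292 to 342 CPM, against 255 to 276 CPM). The shoot sums lay below them in the same genotypes (in L*er* 25.7 to 35.6 CPM, against 55.5 to 74.1 CPM). In *ga4* the ranges of both sums overlapped. The sum of the lateral root cap markers hid opposite changes. In L*er*, *SMB* fell (-1.09, edgeR adjusted P = 0.00260), *BRN2* rose (0.75, adjusted P = 0.0226) and *BRN1* was not called (-0.09). *SMB* and *BRN2* were called in the same directions in *della5x*, and in *gai* and *ga4* only the rise of *BRN2* was called. The part of the markers in the changes of the *GASA* genes was not tested.

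After 1 h on salt 2 of the 6 tested members were called in *della5x* and 1 in L*er*, against 10.1% of 20073 genes in *della5x* and 13.9% in L*er*. The libraries of the media did not overlap for 2 of the 6 in *della5x* and 4 of the 6 in L*er*, against 27.8% of all genes tested in *della5x* and 41.3% in L*er*. The dividing-cell and meristem markers named above had a summed level of 179.5 to 209 CPM in the 6 salt libraries of 1 h, against 219.6 to 239.8 CPM in the 6 mock libraries. The ranges of the other marker sums overlapped when the genotypes were pooled. Within L*er*, the root hair sum was 148 to 190 CPM upon salt, against 228 to 369 CPM, without overlap. Of the root hair markers only *LRX1* was called there (-1.97, edgeR adjusted P = 0.0151). *COBL9* (-0.83), *EXPA18* (-0.79), *EXPA7* (-0.03) and *RHD6* (0.63) were not, so that the markers did not move as a set. The part of the markers was not tested. *GASA7* was called in both genotypes. It was at 22.1, 18.4 and 24.6 CPM upon salt in *della5x*, against 44.7, 39.1 and 31.4 CPM on mock medium, with a log2 fold change of -0.83 (SE 0.141, edgeR adjusted P = 0.00357). In L*er* it was at 25.8, 26.7 and 29.3 CPM upon salt, against 40.7, 38.7 and 41.0 CPM on mock medium, a change of -0.56 (SE 0.141, edgeR adjusted P = 0.0188). No libraries of the media overlapped in either genotype, but the L*er* call was lost in 4 refits that left out 1 L*er* library, with adjusted P up to 0.0672. Without the *della5x* library that stood apart, the change of *GASA7* in *della5x* was -0.73 (edgeR adjusted P = 0.00702). In L*er* it was then -0.57 (edgeR adjusted P = 0.00746).

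*GASA10* was at 7.59, 6.79 and 6.13 CPM upon salt for 1 h in *della5x*, against 4.89, 3.12 and 2.34 CPM on mock medium. In L*er* it was at 4.96, 6.36 and 4.95 CPM upon salt, against 3.74, 2.89 and 2.73 CPM on mock medium. The libraries of the media did not overlap in either genotype. In *della5x* the log2 fold change of 0.99 (SE 0.271) was called by edgeR (adjusted P = 0.0381), and this call was lost in 9 of 12 refits without 1 library, among them that without the library that stood apart (0.98, adjusted P = 0.0553). In L*er* the log2 fold change of 0.79 (SE 0.274) was not called by edgeR (adjusted P = 0.0722), but was by DESeq2 (0.79, adjusted P = 0.0427).

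*GASA4* was at 334, 240 and 370 CPM upon salt for 1 h in *della5x*, against 240, 211 and 178 CPM on mock medium, and at 288, 366 and 309 CPM in L*er*, against 201, 265 and 229 CPM. The L*er* groups did not overlap. The *della5x* groups met at 240 CPM, where the salt value is that of the library that stood apart, and the other *della5x* salt libraries lay above all mock libraries. The log2 fold change was 0.59 in *della5x* (SE 0.175, edgeR adjusted P = 0.0528) and 0.46 in L*er* (SE 0.175, adjusted P = 0.0984). The change in *della5x* was called by DESeq2 (0.58, adjusted P = 0.0179) and by edgeR in a fit of all 36 libraries (0.57, adjusted P = 0.0352). Without the *della5x* library that stood apart, *GASA4* was called in *della5x* (0.74, edgeR adjusted P = 0.00961). In L*er* the edgeR adjusted P of *GASA4* was then 0.0366, at a log2 fold change of 0.46 that did not reach the 0.5 for a call. *GASA1*, *GASA5* and *GASA14* were called in neither genotype. *GASA1* had a log2 fold change of -0.45 (SE 0.445) in *della5x* and -0.35 (SE 0.445) in L*er*, and without the library that stood apart the *della5x* value was -0.01. *GASA5* turned its sign in *della5x*, with 0.76 (SE 0.694) over all libraries and -0.56 without that library, while *GASA14* was at -0.53 (SE 0.263) and -0.73. In L*er*, *GASA14* was lower in all 3 salt libraries (11.5, 7.63 and 9.53 CPM, against 13.4, 13.2 and 15.7 CPM), at -0.56 (SE 0.261, edgeR adjusted P = 0.171).

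The response of L*er* at 8 h was then tested against that at 1 h with only its own 12 libraries fitted, where 20.5% of 19928 genes had an adjusted P under 0.05 and 33.5% an unadjusted P under 0.05. Of the 6 tested members, 4 passed the adjusted threshold and 6 the unadjusted one. The difference of the log2 fold changes, 8 h minus 1 h, was -2.37 (SE 0.215, edgeR adjusted P = 5.82e-05) for *GASA1* and 3.89 (SE 0.768, adjusted P = 0.00386) for *GASA5*, neither of which had been called at 1 h. It was -2.28 (SE 0.426, adjusted P = 0.00268) for *GASA14* and 1.39 (SE 0.265, adjusted P = 0.00311) for *GASA10*. For *GASA4* it was 0.56 (SE 0.187, adjusted P = 0.0503) and for *GASA7* -0.58 (SE 0.216, adjusted P = 0.0782), so that these members were on the other side of the threshold. For *GASA4* the difference passed with RLE size factors (edgeR adjusted P = 0.0415), with no filter (0.0390), by DESeq2 (0.0172) and in 3 of 12 refits without 1 library, and for *GASA7* in 1 of these refits (edgeR adjusted P = 0.0269).

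The question of whether GA signalling sets the level of the members without salt was addressed by comparing the mutants with L*er* on mock medium. None of the 6 tested members was called in *della5x* at 1 h (0.165% of 19417 genes called), nor in *della5x* (0.484% of 19645 genes), *gai* (0.789%) or *ga4* (1.31%) at 8 h by edgeR. At an unadjusted P under 0.05 there were 0 of 6 members in *della5x* at 1 h (13% of all genes), 1 in *della5x* at 8 h (*GASA14*; 9.35% of all genes), 0 in *gai* (14.5%) and 1 in *ga4* (*GASA1*; 12.4%). DESeq2 called *GASA14* in *della5x* at 8 h and no member in the other comparisons with L*er* on mock medium. The number of genes called in *della5x* at 1 h was 32, but 16 to 538 without 1 library. *GASA14* was at 7.84, 6.47 and 10.2 CPM in *della5x* at 8 h, against 13.98, 12.04 and 20.8 CPM in L*er*. All *della5x* libraries were below the lowest L*er* library, and the log2 fold change was -0.93 (SE 0.218), with an adjusted P of 0.0946 by edgeR and 0.00754 by DESeq2. The *della5x* and L*er* libraries also did not overlap for *GASA7*, which was lower, and for *GASA10*, which was higher. Neither had an unadjusted P under 0.05. For comparisons between genotypes, on mock medium or upon salt, the share of all genes without overlap was not computed. *GASA1* was at 578, 690 and 551 CPM in *ga4*, against 844, 626 and 771 CPM in L*er*, and these groups overlapped (-0.30, SE 0.126, edgeR adjusted P = 0.344).

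Set against each other, *gai* and *della5x* represent restrained and constitutive GA signalling. Under mock conditions at 8 h, 1 of the 6 tested members was called between them, against 6.63% of 19645 genes. This was *GASA14*, at 18.97, 14.6 and 18.2 CPM in *gai*, against 7.84, 6.47 and 10.2 CPM in *della5x*. The groups did not overlap, with a log2 fold change of 1.08 (SE 0.218, edgeR adjusted P = 0.00824). The call held in all 12 refits without 1 library, at 0.93 to 1.27, but not in a fit of all 36 libraries (1.09, adjusted P = 0.201). Marker sums differed between these groups as well. That of the 6 shoot markers was 107 to 140 CPM in *gai*, against 16.6 to 37.8 CPM in *della5x*, and all 3 shoot markers tested were called, *RBCS1A* (2.68), *CAB1* (2.42) and *LHCA1* (1.54 on the log2 scale). The sums of the dividing-cell and meristem markers (247 to 264 CPM in *gai*, against 232 to 244 CPM in *della5x*) and of the endodermis markers (360 to 410 CPM, against 312 to 341 CPM) did not overlap either, and the part of these markers in the level of *GASA14* was not tested. *GASA5* was at 0.0517, 0.793 and 0.804 CPM in *gai*, against 1.59, 1.62 and 3.19 CPM in *della5x*. These groups did not overlap either, but the log2 fold change of -1.95 (SE 0.805) was not called (edgeR adjusted P = 0.146). *GASA7* differed by 0.41 (SE 0.182, adjusted P = 0.179), and *GASA1*, *GASA4* and *GASA10* by 0.18, 0.06 and -0.01 on the log2 scale.

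**Figure D3:**
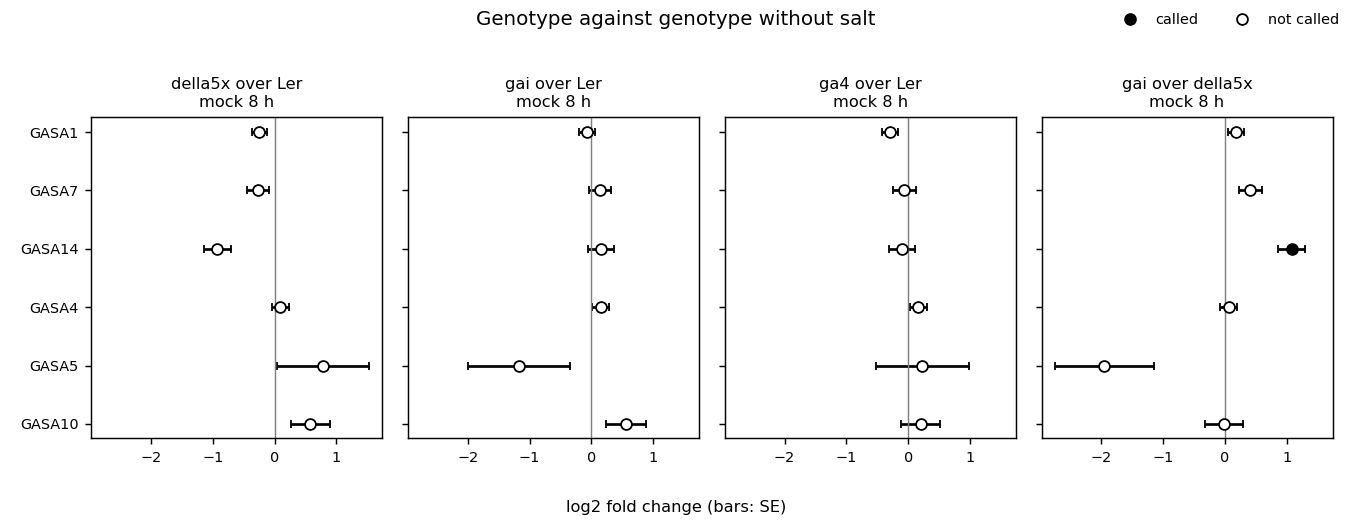
Log2 fold change (x) between genotypes on mock medium at 8 h for the 6 tested *GASA* genes (y), for *della5x*, *gai* and *ga4* over L*er* and for *gai* over *della5x*. Bars are the SE of the edgeR fit and the filled point was called changed. *GASA14* is the filled point (1.08, *gai* over *della5x*), and *GASA5* has the widest bars.

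Upon salt at 8 h none of the 6 tested members was called between a mutant and L*er* by edgeR or DESeq2, where edgeR called 1.01% of 20355 genes for *della5x*, 1.01% for *gai* and 0.884% for *ga4*. At an unadjusted P under 0.05 there was 1 member of 6 in *della5x* (*GASA1*; 12.8% of all genes), 2 in *gai* (*GASA1* and *GASA10*; 12.9%) and 1 in *ga4* (*GASA10*; 13.1%). *GASA1* was at 155, 151 and 146 CPM in *della5x*, against 109, 124 and 114 CPM in L*er*. These groups did not overlap (0.39, SE 0.127, edgeR adjusted P = 0.165). *GASA10* was at 10.06, 5.14 and 7.30 CPM in *ga4*, against 13.3, 11.7 and 15.4 CPM in L*er*, again without overlap (-0.85, SE 0.266, edgeR adjusted P = 0.138), and in *gai* the difference was -0.65 (SE 0.264, adjusted P = 0.282).

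The dependence of the salt response on GA signalling was tested by subtracting the L*er* response from that of each mutant. No member passed the adjusted threshold, which 0% of genes passed in *della5x* at 1 h and in *della5x* and *ga4* at 8 h, and 0.0344% in *gai*. DESeq2 likewise passed none of the members. At an unadjusted P under 0.05 the members numbered 2 of 6 in *della5x* (4.72% of all genes), 2 of 6 in *gai* (5.27%) and 1 of 6 in *ga4* (5.04%) at 8 h, and 0 of 6 in *della5x* at 1 h (4.11%). They were *GASA1* in *della5x* and *gai* and *GASA10* in all 3 mutants, and these comparisons share the L*er* libraries. The fall of *GASA1* differed from that in L*er* by 0.64 (SE 0.178, edgeR adjusted P = 0.829) in *della5x*, by 0.39 (SE 0.178, adjusted P = 0.912) in *gai* and by 0.33 (SE 0.178, adjusted P = 1) in *ga4*. The rise of *GASA10* differed by -0.91 (SE 0.388, adjusted P = 1.00) in *della5x*, by -1.21 (SE 0.390, adjusted P = 0.538) in *gai* and by -1.05 (SE 0.393, adjusted P = 0.899) in *ga4*. For *GASA7* and *GASA4* the differences at 8 h lay between -0.16 and 0.09 in all 3 mutants, with SE of 0.261 to 0.306. *GASA5* and *GASA14* had differences of -1.33 (SE 0.794) and 1.26 (SE 0.806) in *della5x*, neither with an unadjusted P under 0.05.

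**Figure D4:**
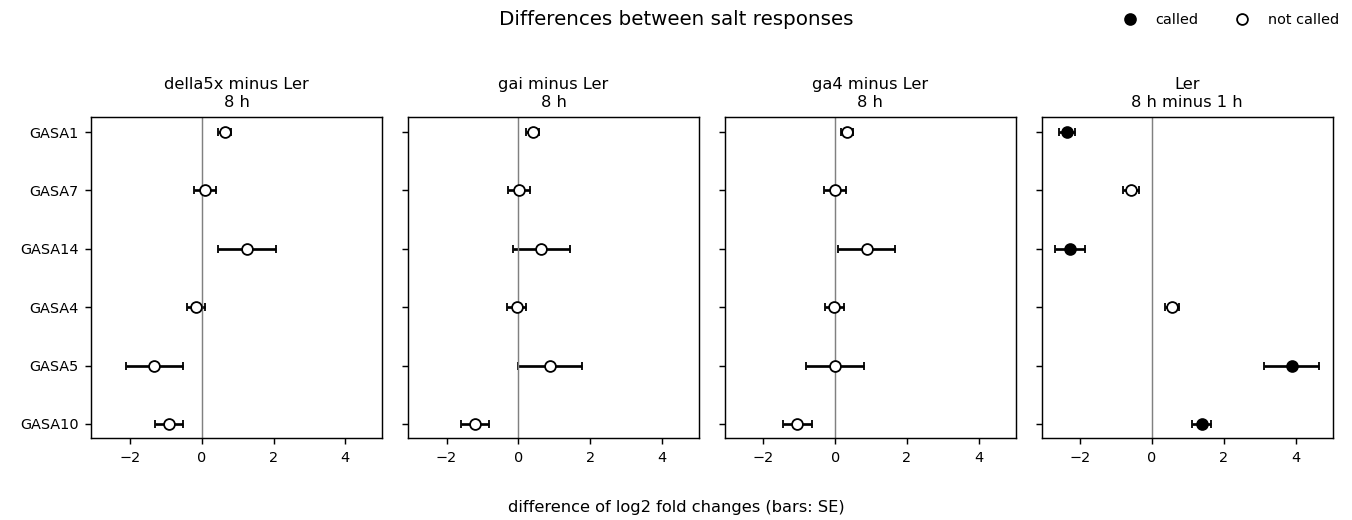
Difference between salt responses (x, log2 scale) for the 6 tested *GASA* genes (y), for *della5x*, *gai* and *ga4* minus L*er* at 8 h and for L*er* at 8 h minus 1 h. Bars are the SE of the edgeR fit and filled points passed an adjusted P of 0.05. The only filled points are *GASA1*, *GASA14*, *GASA5* and *GASA10* in the comparison of times.

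Of the 7 other *GASA* genes, *GASA3* (AT4G09600), known from seeds, was counted in all 18 salt libraries, and the rest were near or at 0. *GASA3* was at 30.96, 30.4 and 49.3 CPM upon salt in L*er* at 8 h, and at 0 in the 3 mock libraries. In *gai* and *ga4* its salt levels were 14.95, 14.9 and 25.5 CPM and 15.8, 10.5 and 26.99 CPM, against 0 in all but 1 mock library each. After 1 h it was already at 22.3, 40.0 and 36.6 CPM upon salt in L*er*, against 0.245, 0 and 0 CPM. Over the whole study it had 199 to 1038 counts per library upon salt and 0 to 9 counts on mock medium. Its neighbour *GASA2* (AT4G09610) had 0 counts in all 36 libraries, as had *GASA12* and *GASA15*, while *GASA8*, *GASA11* and *GASA13* had at most 9, 2 and 1 counts per library. How reads shared by the neighbours *GASA2* and *GASA3* were counted is not given in the sources used here. Of these 7 genes, the ACGTG core was found before *GASA3* alone, 134 to 130 bases from its gene start, against 23.1% of all promoters. TAACAAA was found before *GASA8* and *GASA11*, against 16.2% of all promoters.

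**Figure D5:**
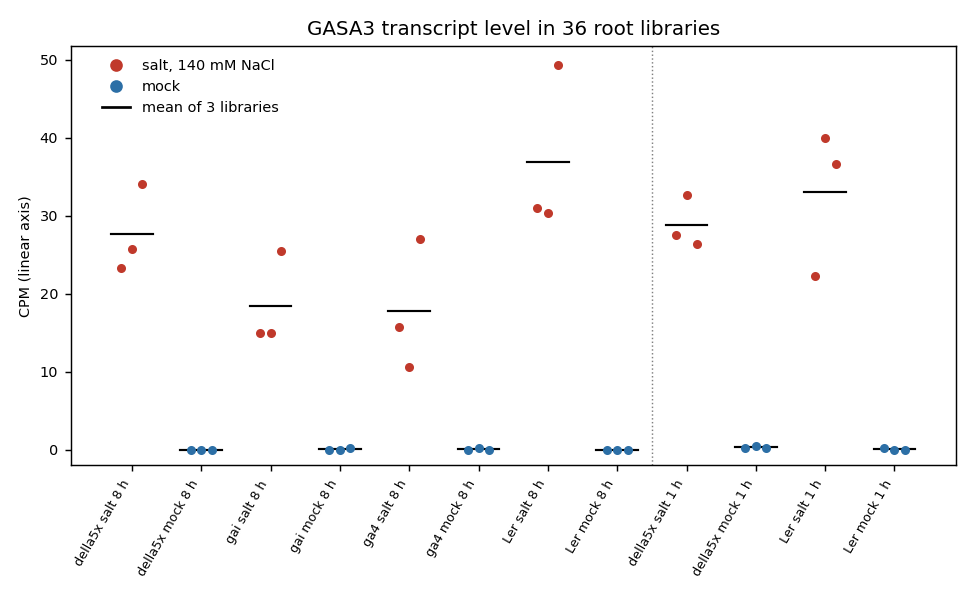
CPM of *GASA3* (y) in each of 36 libraries by genotype, medium and time (x), with 8 h left and 1 h right of the dotted line. Points are libraries and black lines are means of 3. Salt libraries lie between 10.5 and 49.3 CPM and mock libraries at or below 0.493 CPM.

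Genes of the GA pathway gave the setting for the members. Their counts upon salt at 8 h in L*er* stand against 23.3% of all 20355 genes tested that were called there. Of 5 receptor and signalling genes 1 rose, the GA receptor *GID1B* (log2 fold change 1.31, edgeR adjusted P = 5.64e-10), and none fell. Of 5 DELLA genes 2 fell, *RGA* (-0.54, adjusted P = 0.000292) and *GAI* (-0.59, adjusted P = 0.00761), and none rose. Of 9 tested GA synthesis genes *GA2* rose (0.68, adjusted P = 0.00134) and *KAO1* fell (-0.59, adjusted P = 0.0216), and of 5 tested GA 2-oxidase genes, which inactivate GA, *GA2OX6* (1.41, adjusted P = 0.000483) and *GA2OX2* (2.40, adjusted P = 0.00363) rose. Between *gai* and *della5x* on mock medium at 8 h, *GASA14* was the member called, and 6.63% of all 19645 genes tested were called. There, 3 of 5 receptor and signalling genes were higher in *gai*, among them *GID1B* (0.83, edgeR adjusted P = 0.000380) and *SCL3* (1.33, adjusted P = 0.000487). Of 9 synthesis genes 6 were higher there, among them *GA3OX1*, which catalyses the last step of GA synthesis (3.25, edgeR adjusted P = 2.55e-06).

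Across the means of the 12 groups the members fell into opposing patterns. *GASA1*, *GASA7* and *GASA14* correlated positively with each other (Pearson's r from 0.934 to 0.951 on the log2 CPM scale), as did *GASA4*, *GASA5* and *GASA10* (0.791 to 0.889), and between these sets r lay between -0.946 and -0.875. These 12 means share the contrast of salt and mock, and r is given as a description. Among 20696 genes, the pattern of *GASA1* was most like those of AT4G22460 (r = 0.990) and AT5G46900 (0.988), that of *GASA4* like AT4G33550 (0.989) and AT1G04990 (0.981), and that of *GASA5* like the sugar transporter gene *SWEET14* (0.985) and AT5G65980 (0.977). For *GASA7* they were *UBC22* (0.993), a ubiquitin-conjugating enzyme gene, and AT2G23690 (0.987). For *GASA10* they were *MEE23* (0.978) and AT5G06190 (0.969), and for *GASA14* *UBC5* (0.987) and the sugar transporter gene *STP7* (0.985).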

How the data were processed

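RNA-sequencing data of 36 root libraries (16772984 to 23811804 counts each) were analysed. The authors trimmed reads with fastp, mapped them to TAIR10 with Hisat2 and deposited raw HTSeq-Count counts for 28775 genes, so that the counts carry no normalization. The counting mode and strand setting are not given in the sources used here. Differential expression was tested with edgeR 4.0.16 in R 4.3.3 (TMM, filterByExpr with a minimum count of 10 and total of 15, glmQLFit and glmQLFTest, 1 coefficient per group, limma 3.58.1), with Benjamini-Hochberg adjustment of P across every tested gene. Salt comparisons were fitted over all libraries of a time, genotype comparisons under mock over the mock libraries of that time, and the 2 times over the L*er* libraries, 19 comparisons in all. Pairs of groups were called beyond a log2 fold change of 0.5 with adjusted P under 0.05, and differences of responses at an adjusted P under 0.05. SE come from the fit. Log2 CPM used a prior count of 2. The fits were tested on simulated data.

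The members, gene lists and tests were chosen with earlier results of these data known. By the rule for named genes, the 8 members are described, with *GASA6* and *GASA9* by their counts alone and members not called given by value or by number, and of other lists at most 3 genes with the smallest P. Levels per kb used the union of exons in TAIR10.1, where 28009 of the gene identifiers were found. Alternatives were RLE size factors, library totals, no filter beyond 1 count, DESeq2 1.42.0, other sets of libraries and leaving out each library. Protein sequences were not used here. Groups and columns came from the sample labels, and all columns were used. For the second *della5x* salt library of 1 h and the third *ga4* mock library, the label carried a suffix that no column name had. These libraries were assigned to the columns that matched the rest of the label.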

Additional observations from a re-analysis of the deposited data

Results flagged for a closer look

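The salt response of L*er* differed between 8 h and 1 h for 4 members in the test of the difference itself. The difference of log2 fold changes was -2.37 for *GASA1*, 3.89 for *GASA5*, 1.39 for *GASA10* and -2.28 for *GASA14* (edgeR adjusted P = 5.82e-05, 0.00386, 0.00311 and 0.00268).

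*GASA6* had salt and mock libraries that did not overlap in 2 salt responses, both at 1 h and in opposite directions. Among the 20073 genes tested, to which *GASA6* does not belong, the libraries of the media did not overlap for 27.8% in *della5x* and 41.3% in L*er*. It had 0, 0 and 0 counts upon salt in *della5x*, against 4, 1 and 2 on mock medium, and 4, 9 and 3 counts upon salt in L*er*, against 0, 0 and 1 on mock medium. Most of these counts are near the limit of 3 counts, and the difference between the genotypes was not tested.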

How the results depend on the processing

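Each count of members called was recomputed under 5 to 6 other settings and without each library in turn. DESeq2 and a fit of all 36 libraries called 2 members instead of 1 in the L*er* response at 1 h, as did a fit of only the groups compared. In *della5x* at 1 h the first 2 settings called 3 instead of 2 and the fit of only the groups compared 1. At 8 h this fit called 5 instead of 6 in *della5x* and *ga4*, and DESeq2 5 in *della5x*, while RLE size factors, no filter and DESeq2 called 5 instead of 4 in the comparison of times. DESeq2 called 1 instead of 0 in *della5x* against L*er* on mock medium at 8 h, and the fit of 36 libraries 0 instead of 1 in *gai* against *della5x*. Without 1 library the count was 0 to 2 in L*er* and 1 to 3 in *della5x* at 1 h, 5 to 6 in the salt responses of the 3 mutants at 8 h and 4 to 5 in the comparison of times, and did not change in the other comparisons. *GASA5* in *della5x* at 1 h ranged from -0.56 to 1.21, with its sign turned only without the second salt library. For the 58 other values, all with an unadjusted P of 0.05 or above, the sign turned in 63 of 1313 refits and none was called. The causes were not tested.

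Over all genes, DESeq2 gave 528 calls against 32 by edgeR for *della5x* against L*er* on mock medium at 1 h. At 8 h on mock medium it gave 239 against 95 for *della5x*, 406 against 155 for *gai* and 475 against 258 for *ga4*, and upon salt 345 against 205, 386 against 206 and 345 against 180. For the differences from the L*er* response it gave 5 against 0 in *della5x* at 1 h, and 6 against 0, 81 against 7 and 19 against 0 in *della5x*, *gai* and *ga4* at 8 h. The fit of 36 libraries gave 248 against 32 for *della5x* at 1 h on mock medium, 60, 61 and 83 against 95, 155 and 258 for the 3 mutants at 8 h, 112 against 205 and 108 against 206 for *della5x* and *gai* upon salt, 1 against 0 for the *della5x* difference at 1 h and 0 against 7 for that of *gai*. A fit of only the groups compared gave 1056 against 2035 for the *della5x* response at 1 h, 252 against 155 for *gai* on mock medium, and 109 against 205 and 69 against 180 for *della5x* and *ga4* upon salt. Without 1 library, calls over all genes ranged most for *della5x* against L*er* on mock medium at 1 h, with 16 without the third and 538 without the first L*er* library. At 8 h on mock medium they were 51 (without the second *della5x* library) to 156 for *della5x*, 46 (the third L*er* library) to 292 for *gai*, 94 (the first L*er* library) to 280 for *ga4* and 687 (the second *gai* library) to 1567, against 1302, for *gai* against *della5x*, with the highest count without the third *ga4* library in each. Upon salt they were 100 (the second L*er* library) to 227 for *della5x*, 84 (the second *gai* library) to 257 for *gai* and 78 (the second *ga4* library) to 252 for *ga4*. In the responses at 1 h they were 1815 (the third L*er* salt library) to 3578, against 2791, in L*er*. In *della5x* they were 1290 (the first *della5x* mock library) to 2467, against 2035. The highest count of both genotypes was that without the *della5x* salt library that stood apart. For the differences at 8 h they were 1 (the third L*er* mock library) to 23 (the second *ga4* mock library) for *gai* and 0 to 1 for *ga4*. Low counts limit *GASA6* and *GASA9*. No paired analysis was possible because the labels give no replicate numbers.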
